A study of Papio anubis with 40 samples.

Results

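The subject is the set of tRNA fragments that circulated in baboon serum before any experimental intervention. Serum was drawn from 8 olive baboons (Papio anubis; PA8001, PA8003, PA8872, PA8873, PA8912, PA8914, PA8915 and PA8835) at month 0, ahead of the laparoscopy at which menstrual tissue was placed into the peritoneal cavity to induce endometriosis. Small RNA was sequenced from 0.5 mL of serum per animal, with 1 library each, and all 8 libraries carry the label of no treatment. The library titles name endometriosis at every draw, month 0 included. The labels used here give no age, and no later draw is described. The table holds tRNA fragments only, so the serum label could not be checked against markers of other RNAs. Of 58587 distinct fragments with an identifier in the series' 40 libraries, 1977 had a count of 10 or more in at least 4 of the 8 month 0 libraries. These 1977 fragments, of 16 to 56 nt, are the members described, and they held between 99.2% and 99.6% of the identified counts of each library. All shares below are percentages of the members' counts in a library, and errors are the SD over the 8 animals unless another is named.

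A mature tRNA folds into a cloverleaf whose anticodon sits in a 7-base loop closed by a 5-pair stem, and its 3' end carries an added CCA. Ribonucleases such as angiogenin cut tRNAs in or near the anticodon loop and release a 5' and a 3' piece. The 5' pieces of a few tRNAs, glycine, glutamate, valine and lysine among them, are long known as abundant small RNAs of mammalian serum. A tRNA's amino acid and anticodon name its family, so Gly-CCC is the glycine tRNA that reads with CCC.

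The most abundant 5' fragments of 4 of the 5 leading families, and of Glu-TTC and Lys-CTT, are shown to make visible where the fragments stop. Sequences are from the deposited table, 5' to 3', with the 5' strand of the anticodon stem in capitals, as placed from longer fragments of the same family.
tRF-27-Q1Q89P9L842 (Gly-CCC): gcgccgctggtgtagtggtatcatgCA
tRF-31-79MP9P9NH57SD (Val-AAC/CAC): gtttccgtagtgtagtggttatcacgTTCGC
tRF-31-PS5P4PW3FJHPB (Lys-TTT): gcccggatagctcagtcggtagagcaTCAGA
tRF-30-P4R8YP9LON4V (Gly-GCC): gcatgggtggttcagtggtagaattCTCGC
tRF-31-86J8WPMN1E8Y0 (Glu-TTC): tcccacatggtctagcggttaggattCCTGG
tRF-32-PSQP4PW3FJI01 (Lys-CTT): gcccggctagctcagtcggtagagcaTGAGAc
The leading valine, Lys-TTT, Gly-GCC and Glu-TTC fragments each held the whole of that strand and ended on its last base. The Lys-CTT fragment ran 1 base into the loop. The Gly-CCC fragment stopped inside the stem.

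Library totals ranged from 198840 to 5536169 identified counts, and PA8001 stood apart with the lowest total. The next lowest, PA8915, had 2004265. Across pairs of libraries, Spearman's rank correlation of member counts was 0.489 to 0.902 (28 pairs, median 0.815). The 7 pairs that include PA8001 had a median of 0.661, and the other 21 pairs had a median of 0.851. No pair of libraries was near identity, so each was counted as its own sample. Of the 1977 members, 1283 were detected in all 8 libraries, and 688 were not detected in PA8001. There, a count of 0 allows a share of up to 0.00152% (3 counts of the total), against 5.44e-05% to 0.000151% in the other libraries. Several of the results that rest on PA8001 are given with and without it, and others by the value of each animal.

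At the threshold that defines the members, 234 had a count of 10 or more in exactly 4 libraries, and the highest mean share among them was 0.00195%. Just outside it, 251 fragments reached that count in exactly 3 libraries and held 0.0696% of the identified counts in sum. At the other end, 563 members reached a count of 10 in all 8 libraries.

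The month 0 repertoire consisted almost wholly of 5' fragments, which start within 2 bases of a mature tRNA's 5' end. They numbered 1727 of the 1977 members and held 99.5% ± 0.126 of counts (n = 8), between 99.2% in PA8914 and 99.7% in PA8835. Internal fragments, which neither start within 2 bases of an inferred 5' end nor end in CCA, numbered 214 and held 0.498% ± 0.132. Of these, 54 matched no family, so their place in a tRNA is not known. Fragments that end in CCA and start downstream of the 5' end numbered 36 and held 0.0466% ± 0.0352. No full-length tRNA was among the members, and full-length sequences gave 29 counts over all 8 libraries.

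The internal share exceeded the 3' CCA share in 8 of 8 animals, by 0.45 ± 0.15 percentage points (exact two-sided sign-flip test over 8 animals, p = 0.00781, adjusted p = 0.0156 over 12 contrasts). That p is the smallest the design allows. The 3' CCA share was 0.113% in PA8001 (95% Wilson interval 0.099% to 0.129%), 0.049% in PA8003, 0.083% in PA8872 and 0.025% in PA8873. It was 0.019% in PA8912, 0.011% in PA8914 (0.010% to 0.012%), 0.047% in PA8915 and 0.027% in PA8835. The 4 libraries with the lowest totals had the 4 highest shares, with no overlap with the other 4. Across animals the 3' CCA share fell as the log10 of the library total rose (exact pairing permutation tests: Pearson's r = -0.900, p = 0.00149, adjusted p = 0.00417 over 14 relations; Spearman's rho = -0.833, p = 0.0154, adjusted p = 0.0431). Without the 2 animals farthest from the median total, PA8001 and PA8915, r was -0.942 (exact permutation p = 0.00833). Without PA8001 alone, a check added after the data were seen, r was -0.82. The part of library size in the 3' CCA share was not tested.

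Aspartate stood apart in its makeup of ends. Asp-GTC held 23 of the 36 members in the 3' CCA class, and only 17.4% of its pooled counts were in 5' fragments, against 98.5% or more in each of the 6 leading families. Its 5' fragments also ended elsewhere: 64.0% ± 11.6 of their counts, in 8 members, ended in or past the anticodon. There, Gly-CCC had 0.117% ± 0.122 and Val-AAC/CAC had 0.0608% ± 0.0464. The less abundant Glu-TTC and Val-TAC had more such ends than those, at 3.60% ± 1.32 and 4.62% ± 3.37. The Asp-GTC counts are few, since the whole family held 0.208% ± 0.0765. The 3 most abundant 3' CCA members were all from Asp-GTC and differ only in where they begin, with the terminal CCA in capitals.
tRF-42-S5QKF1R3WE8RO86J2: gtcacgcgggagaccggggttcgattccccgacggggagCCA
tRF-41-8HM2OSRNLNKSEK51B: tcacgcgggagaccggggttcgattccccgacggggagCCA
tRF-40-2VR008R959KUMKF6: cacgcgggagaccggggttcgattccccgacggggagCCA
The 42 nt fragment begins with the GTC anticodon itself and held 0.00593% ± 0.00561. Its share was 0.0183% in PA8001 and 0.00129% to 0.00912% in the other animals, so PA8001 lay above all others. The 40 nt fragment was also highest in PA8001, at 0.0183% against 0.000526% to 0.00557%. The 41 nt fragment was not, at 0.000507% there and up to 0.00906% in PA8872.

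The leading internal fragments came from the 3' side of Val-TAC and from a tRNA whose family could not be read.
tRF-32-L2RRM38B8SOUM (family not assigned): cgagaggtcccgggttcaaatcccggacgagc
tRF-35-LPD3387SFRJ4O1 (Val-TAC): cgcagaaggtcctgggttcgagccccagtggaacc
tRF-34-LPD3387SFRJ4HR (Val-TAC): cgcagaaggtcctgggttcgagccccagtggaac
These held 0.0467% ± 0.0349, 0.0362% ± 0.0140 and 0.0350% ± 0.0165 of counts. All 3 were highest in PA8914, at 0.114%, 0.0617% and 0.0632%. Both Val-TAC fragments end in bases that pair with the 5' end of their tRNA and lack the terminal CCA, so they count as internal by definition. Val-TAC, a valine tRNA distinct from the abundant one, had 55.3% of its pooled counts in 5' fragments.

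A pair of families made up most of the repertoire. Gly-CCC held 47.9% ± 13.7 of counts with 489 members, and Val-AAC/CAC held 35.4% ± 13.1 with 321 members. Their sum varied far less than either, at 83.3% ± 3.29. Glu-CTC followed with 6.33% ± 2.15, Lys-TTT with 5.12% ± 1.58 and Gly-GCC with 3.17% ± 1.35, and the 5 together held 97.9% ± 0.781. Of the families with a read anticodon, 19 were found among the members, and the 14 after Gly-GCC held 1.64% ± 0.640 in sum.

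Gly-CCC held 73.5% of counts in PA8001, 59.6% in PA8003, 47.6% in PA8872, 28.8% in PA8873, 41.0% in PA8912, 45.0% in PA8914, 38.3% in PA8915 and 49.2% in PA8835. Val-AAC/CAC held 10.8%, 26.9%, 39.0%, 53.7%, 42.9%, 31.1%, 45.2% and 33.7% in the same animals. Gly-CCC led in 5 animals and Val-AAC/CAC in PA8873, PA8912 and PA8915. The difference, Val-AAC/CAC minus Gly-CCC, was -12.5 ± 26.5 percentage points and did not pass (exact sign-flip test, p = 0.250, adjusted p = 0.300). Without PA8001 it was -5.28 points. Shares of 1 library sum to 100, so more of one family and less of another cannot be told apart.

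**Figure D1:**
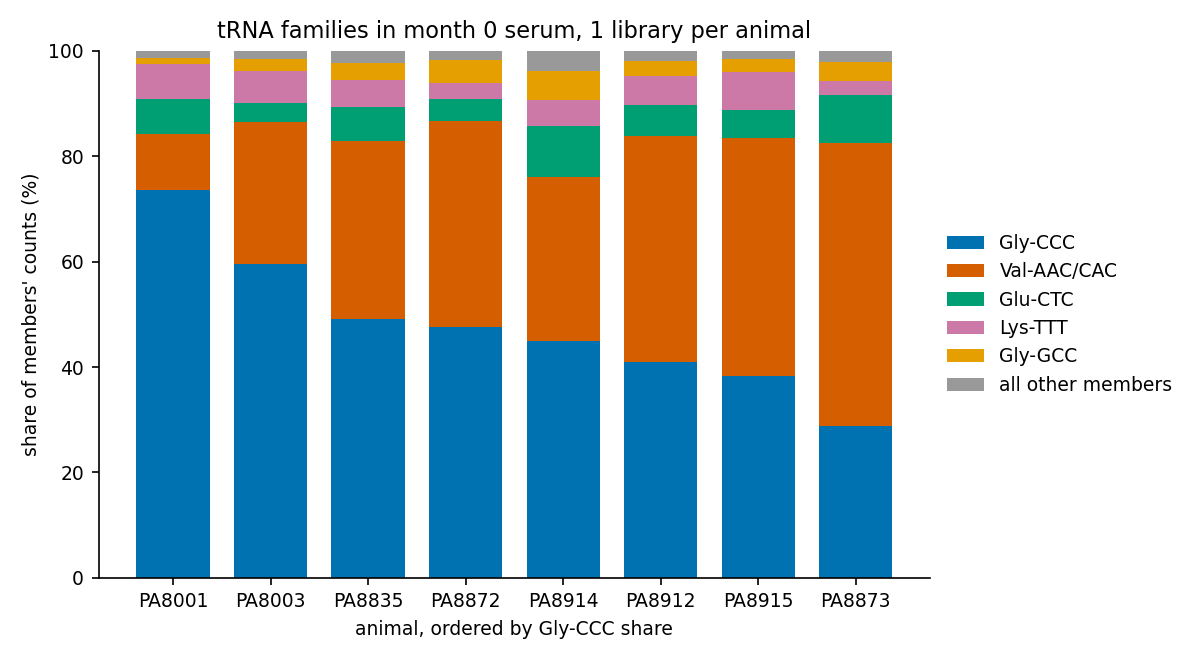
Share of the members' counts (%, y axis) held by each tRNA family in the month 0 library of each animal (x axis, ordered by Gly-CCC share). Gly-CCC and Val-AAC/CAC trade places from 73.5% and 10.8% in PA8001 to 28.8% and 53.7% in PA8873, while their sum stays between 76.0% and 86.6%.

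The order below the leading pair was only partly stable. Gly-CCC exceeded Glu-CTC in 8 of 8 animals, by 41.5 ± 14.5 points (exact sign-flip test, p = 0.00781, adjusted p = 0.0156). The families were picked by their shares in earlier results of these data, so that p lends the order no separate support. Glu-CTC exceeded Lys-TTT in 6 of 8, by 1.20 ± 3.04 points, which was within the spread (exact sign-flip test, p = 0.320, adjusted p = 0.349). Leaving out 1 animal gave 0.458 points (without PA8873) to 1.73 points (without PA8003), and 0.703 without PA8914. Lys-TTT exceeded Gly-GCC in 5 of 8, by 1.95 ± 2.64 points (exact sign-flip test, p = 0.0938, adjusted p = 0.125). Gly-GCC exceeded the next family, Glu-TTC, in all 8.

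Within glutamate, glycine and lysine, the tRNAs with different anticodons compared here were far from even. Glu-CTC held 5.72 ± 1.85 points more than Glu-TTC, in 8 of 8 animals (exact sign-flip test, p = 0.00781, adjusted p = 0.0156). Here too Glu-CTC had been picked for its large share in earlier results of these data. The Glu-CTC share was 5.56 to 21.4 times that of Glu-TTC, with the lowest ratio in PA8914. Gly-CCC was 8.15 to 66.4 times Gly-GCC, and Lys-TTT was 4.57 to 21.1 times Lys-CTT; these ratios are descriptions without a test. The highest value of both came from PA8001, and without it the highest were 27.4 (PA8003) and 14.9 (PA8915). Glu-TTC itself held 0.609% ± 0.476, from 0.245% in PA8915 to 1.73% in PA8914.

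The smaller families covered a wide range of levels. Lys-CTT held 0.490% ± 0.142, Asp-GTC 0.208% ± 0.0765 and Val-TAC 0.172% ± 0.0417. Met-CAT, in which the read sequence is that of the initiator that starts protein synthesis, held 0.107% ± 0.0353. His-GTG held 0.0134% ± 0.0234 and Leu-CAG 0.0121% ± 0.00588. His-GTG rested on 3 members and was not detected among the members' counts of PA8001, while it reached 0.0680% in PA8914. A further 0.331% ± 0.144 lay in 78 5' fragments whose tRNA anticodon was not read in any fragment, and 0.125% ± 0.0673 lay in 62 members with no family.

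The valine name covers a pair of anticodons. Fragments long enough to span the anticodon gave 1845 counts over the 8 libraries, of which 961 read CAC (52.1%) and 752 read GAC (40.8%). The first anticodon base of the AAC tRNA is known to be converted to inosine, which sequencing reads as G. Valine tRNA genes in the RefSeq table used (Panubis1.0) are named with AAC, CAC or UAC, and GAC reads were counted as AAC. The 5' fragments that end before the anticodon, nearly all of the family, cannot be assigned to one or the other.

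Very few fragments made up most of each library. The most abundant fragment of a library held 20.3% ± 3.01 of its counts, the 10 most abundant held 74.3% ± 2.56 and the 100 most abundant held 92.8% ± 1.80. The smallest set of fragments that held 50% of the counts numbered 3 to 5, and 32 to 102 fragments held 90%. The effective number of fragments, the exponential of the Shannon entropy, was 30.3 ± 4.35. PA8915 at 39.2 and PA8001 at 33.9 had the highest values, and their 90% sets were also the largest, at 102 and 95 fragments. In the other animals 32 to 61 fragments held 90%.

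The identity of the leading fragment differed between animals. The 31 nt valine fragment tRF-31-79MP9P9NH57SD led in PA8872, PA8873, PA8912, PA8915 and PA8835. The 27 nt Gly-CCC fragment tRF-27-Q1Q89P9L842 led in PA8003 and PA8914, and the 32 nt Gly-CCC fragment tRF-32-Q1Q89P9L8422Q led in PA8001. The first 10 of any library drew on 16 fragments of 5 families, and 6 fragments were in the first 10 of every library. Of the 1977 members, 14 had a mean share of 1% or more and together held 79.3%, while the 1642 members under 0.01% held 3.02%.

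tRF-31-79MP9P9NH57SD held 4.18% of counts in PA8001, 12.5% in PA8003, 19.0% in PA8872, 24.1% in PA8873, 22.2% in PA8912, 16.1% in PA8914, 19.2% in PA8915 and 15.3% in PA8835. Its mean was 16.6% ± 6.25, and PA8001 lay lowest. tRF-27-Q1Q89P9L842 held 3.31%, 18.6%, 12.7%, 10.7%, 14.4%, 19.8%, 6.75% and 13.7% in the same order of animals, with a mean of 12.5% ± 5.56. The 32 nt form tRF-32-Q1Q89P9L8422Q held 24.1%, 8.92%, 7.77%, 4.16%, 6.39%, 3.16%, 9.88% and 8.93%. PA8001 and PA8915 were the lowest for the 27 nt form and the highest for the 32 nt form of the same tRNA, and PA8914 was the reverse.

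The other fragments of the first 20 by mean share came from the same 5 families. At ranks 3 and 5, the 29 nt and 30 nt Gly-CCC forms held 5.66% to 13.9% and 4.35% to 13.5%. Valine forms of 30 to 32 nt took 8 of the 20 places, and apart from the leader they ranged from a mean of 4.93% ± 1.98 (tRF-31-79MP9P9NHR7SD) to 0.573% ± 0.262 (tRF-30-79MP9P9NH57S). The latter held 0.0451% in PA8001 and 0.495% to 0.938% in the other 7. Lys-TTT and Glu-CTC took 3 places each: their 31 nt forms held 2.29% ± 0.712 and 2.12% ± 0.997, and their 32 nt forms 1.20% ± 0.687 and 1.99% ± 0.961. Gly-GCC took 1 place, tRF-30-P4R8YP9LON4V, with 1.61% ± 0.716 and its lowest value, 0.511%, in PA8001.

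**Figure D2:**
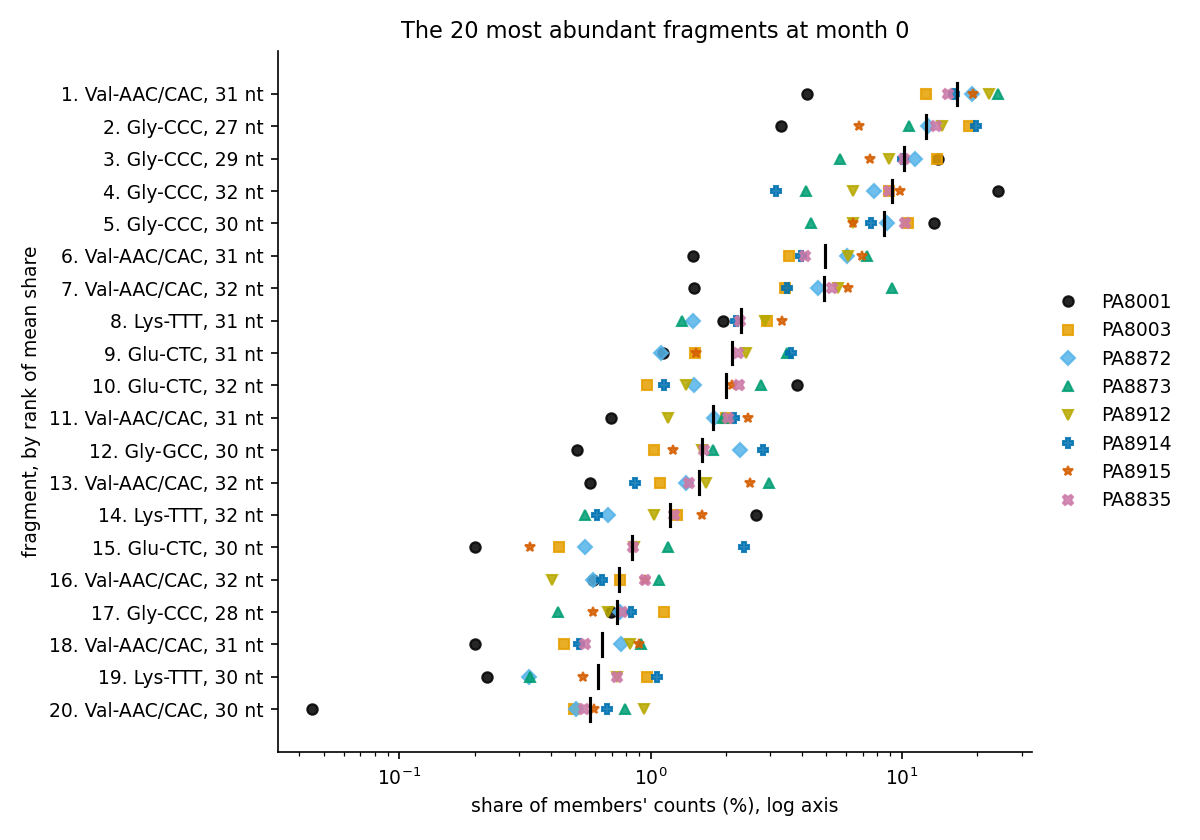
Share of the members' counts (%, log x axis) of the 20 most abundant fragments (y axis, by rank of mean share, named by family and length) in each of the 8 animals; the black tick is the mean. The fragments at ranks 2 to 5 are the 27, 29, 32 and 30 nt forms of Gly-CCC, and PA8001 is at opposite ends for the 27 nt (3.31%) and 32 nt (24.1%) forms.

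Lengths fell into a narrow window that left out the short classes of tRNA fragment. Fragments of 30 to 36 nt held 71.1% ± 7.18 of counts and those of 25 to 29 nt held 28.3% ± 7.13. Fragments of 16 to 24 nt held 0.542% ± 0.137, and those of 37 nt and over held 0.0726% ± 0.0544 with 0.186% in PA8872 as the highest. The count-weighted mean length was 30.18 nt ± 0.36. It was lowest in PA8914 at 29.66 nt and highest in PA8001 at 30.67 nt. The commonest length was 31 nt in 7 animals, and 32 nt in PA8001.

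Single lengths were far from even within that window. The 31 nt class held 32.0% ± 9.58, 32 nt held 23.0% ± 9.48, 30 nt held 14.8% ± 2.97, 27 nt held 14% ± 5.79 and 29 nt held 12.5% ± 3.47. The 28 nt class, between strong neighbours, held 1.49% ± 0.390, and 33 nt held 0.995% ± 0.405. The 3' CCA fragments were longer on average than the 5' fragments, at 34.53 nt ± 1.63 against 30.19 nt ± 0.36. The difference of 4.34 nt ± 1.78 was positive in 8 of 8 animals (exact sign-flip test, p = 0.00781, adjusted p = 0.0156).

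The length pattern came from families with distinct profiles. Val-AAC/CAC 5' fragments had 72.4% ± 3.82 of their counts at 31 nt and 22.6% ± 3.85 at 32 nt. Gly-CCC was spread over 4 lengths: 30.8% ± 12.8 at 27 nt, 24% ± 1.6 at 29 nt, 19.8% ± 2.61 at 30 nt and 21.2% ± 10.9 at 32 nt, with 2.05% ± 0.294 at 28 nt and 1.06% ± 0.345 at 31 nt between them. The Shannon entropy of 5' lengths was 1.49 nats ± 0.07 in Gly-CCC and 0.78 nats ± 0.05 in Val-AAC/CAC. It was higher in Gly-CCC in 8 of 8 animals, by 0.71 nats ± 0.08 (exact sign-flip test, p = 0.00781, adjusted p = 0.0156).

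The Gly-CCC series is shown as its exact-sequence members from 27 to 32 nt, with the bases beyond position 27 in capitals.
tRF-27-Q1Q89P9L842: gcgccgctggtgtagtggtatcatgca
tRF-28-Q1Q89P9L84DF: gcgccgctggtgtagtggtatcatgcaA
tRF-29-Q1Q89P9L84FS: gcgccgctggtgtagtggtatcatgcaAG
tRF-30-Q1Q89P9L8422: gcgccgctggtgtagtggtatcatgcaAGA
tRF-31-Q1Q89P9L8422E: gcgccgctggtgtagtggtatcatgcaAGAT
tRF-32-Q1Q89P9L8422Q: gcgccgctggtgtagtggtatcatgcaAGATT
The valine series from 30 to 33 nt is shown for comparison, with the bases beyond position 30 in capitals.
tRF-30-79MP9P9NH57S: gtttccgtagtgtagtggttatcacgttcg
tRF-31-79MP9P9NH57SD: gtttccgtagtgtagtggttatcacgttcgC
tRF-32-79MP9P9NH57SJ: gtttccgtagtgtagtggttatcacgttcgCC
tRF-33-79MP9P9NH57SD3: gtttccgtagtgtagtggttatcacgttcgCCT
The 32 nt glycine form and the 33 nt valine form each end on the base just before the anticodon. That end is common in Gly-CCC (21.2% ± 10.9) and scarce in Val-AAC/CAC (2.18% ± 0.610).

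Mean 5' lengths differed between families. Val-AAC/CAC averaged 31.22 nt ± 0.04, Glu-CTC 31.10 nt ± 0.36, Lys-TTT 31.06 nt ± 0.22, Gly-GCC 29.66 nt ± 0.16 and Gly-CCC 29.19 nt ± 0.62. Val-AAC/CAC was longer than Gly-CCC by 2.03 nt ± 0.60, in 8 of 8 animals (exact sign-flip test, p = 0.00781, adjusted p = 0.0156). Gly-GCC was longer than Gly-CCC by 0.47 nt ± 0.48, in 7 of 8, with PA8001 the exception (exact sign-flip test, p = 0.0234, adjusted p = 0.0402). That call was lost with any animal other than PA8001 left out, where adjusted p was 0.0536 to 0.0804 by exact sign-flip tests over 7 animals.

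Glu-CTC differed from Val-AAC/CAC by -0.12 nt ± 0.33 (exact sign-flip test, p = 0.367, adjusted p = 0.367). Lys-TTT was shorter than Val-AAC/CAC in 7 of 8 animals, with a difference of -0.17 nt ± 0.20, and did not pass (exact sign-flip test, p = 0.0547, adjusted p = 0.0820). Without PA8001 that difference was -0.22 nt and passed (exact sign-flip test over 7 animals, adjusted p = 0.0234).

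The anticodon stem does not sit at the same base in all of these tRNAs. The anticodon begins at base 33 of both glycine tRNAs and at base 34 of the valine, glutamate and lysine tRNAs. Counted from the last base of the 5' strand of the anticodon stem, Val-AAC/CAC fragments ended at 0.22 ± 0.04 bases and Gly-CCC fragments at -0.80 ± 0.62 on average. The difference, 1.02 ± 0.60 bases, remained in 7 of 8 animals, all but PA8001 (exact sign-flip test, p = 0.0156, adjusted p = 0.0312). This way of counting was chosen after the data were seen.

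The 3' ends fell on few positions of the stem and loop. On the last base of the 5' strand of the stem ended 72.4% ± 3.82 of Val-AAC/CAC 5' counts, 73.7% ± 4.59 of Gly-GCC, 54.1% ± 6.88 of Lys-TTT and 37.9% ± 8.87 of Glu-CTC. In Gly-CCC it was 19.9% ± 2.61. One base further, on the first base of the loop, ended 22.6% ± 3.85 in Val-AAC/CAC, 27.6% ± 11.6 in Lys-TTT and 38.5% ± 17.8 in Glu-CTC, against 1.03% ± 0.343 in Gly-CCC and 3.28% ± 1.00 in Gly-GCC. Inside the stem, before its last base, ended 57.6% ± 13.2 of Gly-CCC, 22.1% ± 12.2 of Glu-CTC, 20.3% ± 6.09 of Gly-GCC, 17.3% ± 8.56 of Lys-TTT and 2.52% ± 0.744 of Val-AAC/CAC. The Gly-CCC value was the highest of these 5 families in 8 of 8 animals, from 31.4% in PA8001 to 74.0% in PA8914.

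**Figure D3:**
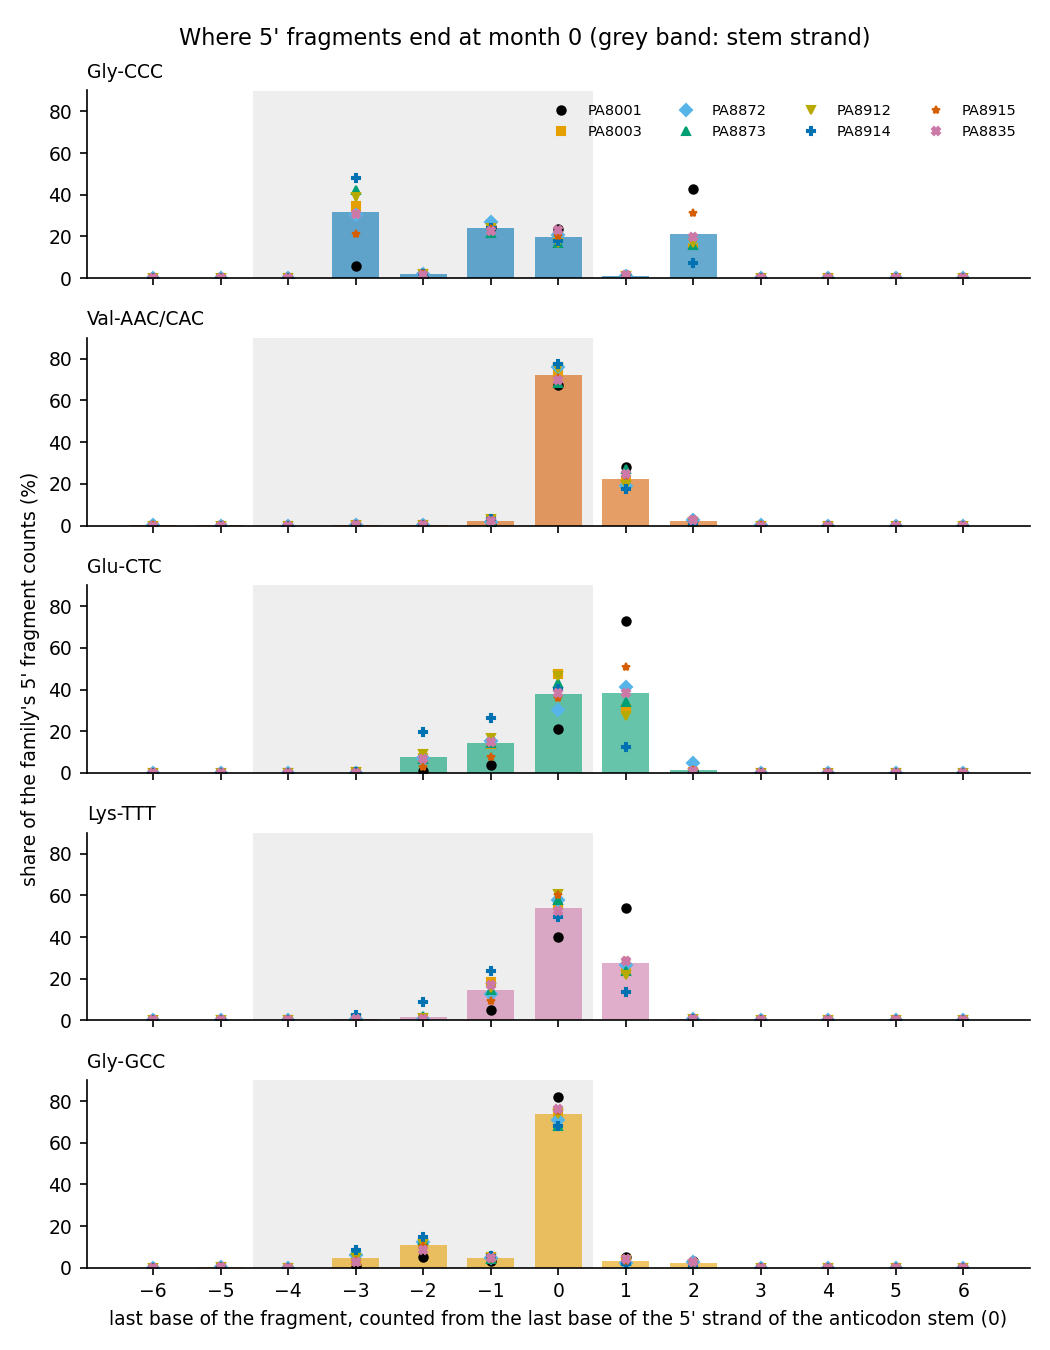
Share of each family's 5' fragment counts (%, y axis) by the position of the fragment's last base (x axis, bases from the last base of the 5' strand of the anticodon stem, which is the grey band); bars are means and symbols are the 8 animals. Val-AAC/CAC and Gly-GCC peak at position 0 (72.4% and 73.7%), while Gly-CCC has peaks at -3, -1, 0 and 2 and moves from 47.8% at -3 in PA8914 to 42.9% at 2 in PA8001.

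Ends in 3 of the less abundant families also lay mostly on these positions. Met-CAT had 72.8% ± 3.03 on the last stem base and 22.9% ± 2.14 inside the stem. Lys-CTT had 43.8% ± 6.65 on the last stem base and 36.3% ± 7.56 on the first base of the loop, and Glu-TTC had 51.8% ± 10.9 and 25.7% ± 13.9. The 5' starts cannot be set against the ends, since the class admits only starts within 2 bases of a 5' end inferred from these same sequences. Within that window, 98.8% ± 0.486 of Gly-CCC and 99.4% ± 0.219 of Glu-CTC 5' counts began on the inferred first base. Most of the rest began 1 base later.

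Mean 5' lengths of several families were high or low in the same animals. Mean 5' length of Gly-CCC was 30.43 nt in PA8001, 28.98 nt in PA8003, 29.14 nt in PA8872, 28.78 nt in PA8873, 28.87 nt in PA8912, 28.41 nt in PA8914, 29.70 nt in PA8915 and 29.20 nt in PA8835. Glu-CTC had 31.69 nt, 31.02 nt, 31.21 nt, 31.06 nt, 30.90 nt, 30.44 nt, 31.39 nt and 31.11 nt in the same order. PA8001 and PA8915 were the longest in both families and PA8914 the shortest. Val-AAC/CAC stayed between 31.16 nt and 31.28 nt in all 8.

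Gly-CCC and Glu-CTC lengths correlated across animals (exact pairing permutation tests over 8 animals: r = 0.937, p = 0.000868, adjusted p = 0.00405 over 14 relations; rho = 0.905, p = 0.00456, adjusted p = 0.0213). Glu-CTC and Lys-TTT gave r = 0.975 (exact permutation p = 7.44e-05, adjusted p = 0.00104) and rho = 0.976 (exact permutation p = 0.000397, adjusted p = 0.00556). Gly-CCC and Lys-TTT gave r = 0.936 (exact permutation p = 0.000298, adjusted p = 0.00208) and rho = 0.881 (exact permutation p = 0.00724, adjusted p = 0.0253). Without PA8001 and PA8914, the 2 animals farthest from the median, r over the other 6 was 0.892, 0.948 and 0.959 for these relations (exact permutation p = 0.0194, 0.00417 and 0.0167). With adjustment over the 14 relations at 6 animals, the relation of Glu-CTC with Lys-TTT still passed, and both with Gly-CCC missed the threshold (exact permutation, adjusted p = 0.0544 for each).

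The relations with Gly-GCC rested partly on those 2 animals. Gly-CCC and Gly-GCC gave r = 0.912 (exact permutation p = 0.00141, adjusted p = 0.00417) and rho = 0.952 (exact permutation p = 0.00114, adjusted p = 0.00799), and r = 0.723 without them (exact permutation p = 0.108). Glu-CTC and Gly-GCC fell from r = 0.862 (exact permutation p = 0.00905, adjusted p = 0.0181; rho = 0.786, p = 0.0279, adjusted p = 0.0652) to 0.434 (exact permutation p = 0.386). Lys-TTT and Gly-GCC fell from 0.885 (exact permutation p = 0.00474, adjusted p = 0.0111; rho = 0.738, p = 0.0458, adjusted p = 0.0917) to 0.557 (exact permutation p = 0.272).

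None of the 4 relations with Val-AAC/CAC passed over all 8 animals; without PA8873 and PA8914, that with Gly-GCC did (r = 0.912, exact permutation p = 0.00556, adjusted p = 0.0389). Their r was 0.435 to 0.680 (exact permutation tests, adjusted p 0.0968 to 0.306) and their rho 0.476 to 0.690 (exact permutation tests, adjusted p 0.121 to 0.284). Of the relations with the log10 of the library total, that with mean length gave r = -0.609 (exact permutation p = 0.0892, adjusted p = 0.125) and rho = -0.571 (exact permutation p = 0.151, adjusted p = 0.212). Its r was 0.113 without PA8001 and PA8915 (exact permutation p = 0.883), so it rested on those animals. The 5' share gave r = -0.0776 (exact permutation p = 0.798, adjusted p = 0.798) and rho = -0.0476 (exact permutation p = 0.935, adjusted p = 0.935). The share of the 10 most abundant fragments gave r = 0.551 (exact permutation p = 0.153, adjusted p = 0.195) and rho = 0.238 (exact permutation p = 0.582, adjusted p = 0.627).

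**Figure D4:**
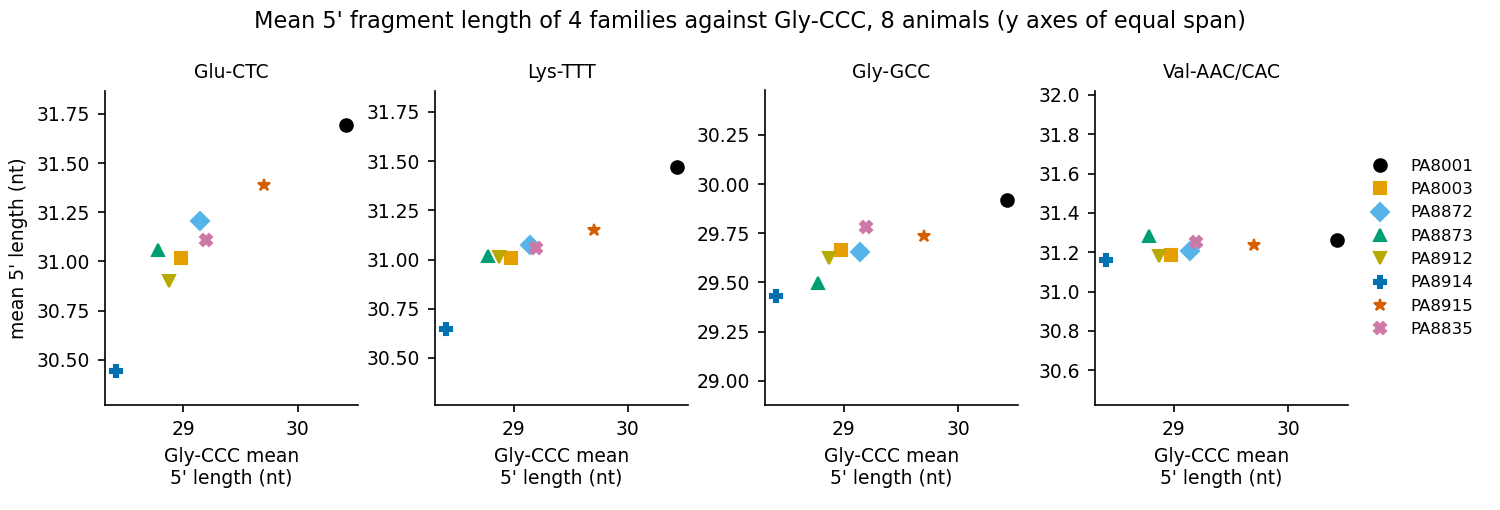
Mean 5' fragment length (nt, y axes, each spanning the same range) of Glu-CTC, Lys-TTT, Gly-GCC and Val-AAC/CAC against that of Gly-CCC (nt, x axis) in the 8 animals, 1 symbol each. The first 3 panels rise with Gly-CCC (r = 0.937, 0.936 and 0.912), with PA8914 lowest and PA8001 highest in each, while Val-AAC/CAC spans only 31.16 nt to 31.28 nt.

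Sequence variants made up a sizeable and steady part of the valine fragments. Against the leading 31 nt fragment, positions counted from 1 at its 5' base, the commonest forms differ by A24C, T16C and G26A, with the substituted base in capitals.
tRF-31-79MP9P9NHR7SD: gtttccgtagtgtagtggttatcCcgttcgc
tRF-31-79MP9PMNH57SD: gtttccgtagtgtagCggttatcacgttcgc
tRF-31-79MP9P9NH5ISD: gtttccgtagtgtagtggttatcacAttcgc
Of the valine counts at 31 nt with at most 2 substitutions, the leading form held 63.8% ± 3.68 and the A24C form held 19.1% ± 1.74, between 16.4% in PA8914 and 21.7% in PA8915. The G26A form held 2.49% ± 0.229. The T16C form varied more, at 7.46% ± 2.27, from 3.62% in PA8912 to 10.1% in PA8003. Gly-GCC had a comparable variant at 30 nt, G5T, with 18.5% ± 4.65, from 14.2% in PA8872 to 26.1% in PA8835. In Gly-CCC, Glu-CTC and Lys-TTT the leading form held 89.3% ± 5.24, 88.6% ± 4.66 and 83.8% ± 4.97 of its length class, and no single variant exceeded a mean of 1.53%, 2.00% and 2.31%. The origin of the variants was not tested.

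One substitution set PA8001 apart in 5 families at once. Among Gly-CCC 5' fragments that start on the mature base, A stood in place of the first G in 6.29% of PA8001 counts and in 0.383% to 0.962% in the other 7 animals. The same exchange reached 6.30% against 0.416% to 1.14% in Lys-TTT, 7.51% against 0.416% to 1.22% in Gly-GCC, and 5.50% against 0.414% to 1.10% in Lys-CTT. In Val-AAC/CAC, which also begins with G, it was 0.439% against 0.0455% to 0.0609%. PA8001 did not overlap with the other animals in any of the 5 families, and PA8914 was the lowest in the 4 glycine and lysine families. Rarer exchanges of the first G were mixed. C in its place was highest in PA8001 in Gly-CCC (0.0395%, others at most 0.0133%) and Lys-TTT (0.0542%, others at most 0.0201%). T in its place was highest in PA8001 in Gly-CCC, Val-AAC/CAC and Lys-CTT, but not in Lys-TTT or Gly-GCC. The form with G1A of the 32 nt Gly-CCC fragment, tRF-32-E1Q89P9L8422Q, held 1.97% of all PA8001 counts and 0.0119% to 0.113% elsewhere. PA8001 also had the lowest total, whose part in this was not tested.

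**Figure D5:**
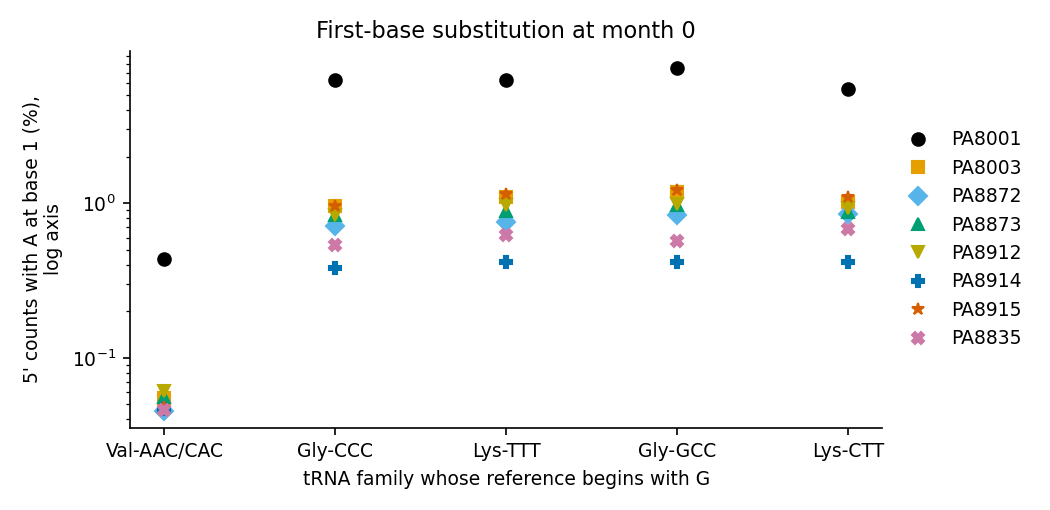
Share of 5' fragment counts with A in place of the first G (%, log y axis) in 5 families whose tRNA begins with G (x axis), 1 symbol per animal. PA8001 lies above the other 7 animals in each family (6.29% against at most 0.962% in Gly-CCC), and Val-AAC/CAC lies below the other 4 families in every animal.

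With 1 library per animal, the spread between animals includes that of sampling and library preparation. The biological coefficient of variation (edgeR 4.0.16, intercept only, TMM scaling) was 0.601 over the 1977 members, and 0.53 without PA8001. The SD over animals of log2(CPM + 0.5), where CPM scales the members' counts in a library to a sum of 1000000, had a median of 0.758 for the 14 members of 1% or more, against a median counting error of 0.00980. For the 1642 members under 0.01% the medians were 1.18 and 0.544. Without PA8001 these median SDs were 0.500 and 0.700.

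The least variable of the 335 members with a mean of at least 100 CPM were all 27 nt Gly-CCC forms with 1 substitution. tRF-27-Q1Q89P9L84K had an SD of 0.22 on the log2 scale, with a share of 0.0319% to 0.0514%. The others, tRF-27-Q1Q8VP9L842, tRF-27-Q1Q89P9L84O, tRF-27-Q1Q89P9L8H2 and tRF-27-Q1Q8989L842, had SDs of 0.23 to 0.29. By length, the 35 Gly-CCC 5' members of 27 nt at that level had a median SD of 0.441, the 38 of 29 nt had 0.834, the 37 of 30 nt had 0.947 and the 40 of 32 nt had 1.51. The exact-sequence 27 nt form, tRF-27-Q1Q89P9L842, had an SD of 0.85. Without PA8001 that SD was 0.52, and the median SDs by length were 0.279, 0.617, 0.684 and 1.12.

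The most variable was the His-GTG fragment tRF-30-PW5SVP9N15WV, with an SD of 3.38 on the log2 scale, and 2.89 without PA8001. It was at 0 in PA8001, 0.000302% to 0.00572% in 5 animals, 0.0230% in PA8873 and 0.0674% in PA8914. Its sequence is gccgtgatcgtatagtggttagtactCTGC, with the part of the stem strand that it holds in capitals. tRF-29-79MP9P9NH525 (valine, SD 3.28) and tRF-31-PYRP4PW3FJHPB (Lys-TTT, SD 2.89) were at 0 in PA8001, and had SDs of 0.40 and 0.68 without it. The Asp-GTC internal fragment tRF-32-L85DMKYUYRLH4 (SD 2.20) held 0.0684% in PA8872 and 0.0314% in PA8001, against 0.000467% to 0.00532% in the other 6. Its SD without PA8001 was 2.11. A form 1 base longer, tRF-33-L85DMKYUYRLHDY, led Asp-GTC with 0.0210% ± 0.0218 and was lowest in PA8001, at 0.00203%, and highest in PA8873, at 0.0606%. The last of these 5 was tRF-32-E1Q89P9L8422Q, with an SD of 2.12, and 1.05 without PA8001.

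Long fragments were rare. The most abundant over 36 nt was a 52 nt Gly-CCC fragment, tRF-52-Q1Q89P9L8422YRI7XUK8N, shown with its anticodon in capitals: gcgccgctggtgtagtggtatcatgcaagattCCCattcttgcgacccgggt. It held 0.00942% ± 0.0116, with 0.0339% in PA8872, 0.0183% in PA8001 and 0.000635% to 0.0111% in the others. tRF-47-1OR6QO004MR1J5KUB4Q, a 47 nt 5' fragment whose tRNA was not identified, held 0.0157% in PA8872 and 0.0147% in PA8835, at most 0.00282% in the other 6, and was at 0 in PA8001.

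Lists of tRNA groups from the field were described by their members and share. The 5' fragments of tRNAs known as abundant in serum had 1468 members and 98.3% ± 0.676 of counts, led by tRF-31-79MP9P9NH57SD; 7 families make up that list and 5 of them are the leading ones here. Glutamate, aspartate, glycine and tyrosine tRNAs have fragments described to bind the protein YBX1. Counting every fragment of these tRNAs, whether or not its form is described to bind, gave 1114 members and 58.2% ± 12.5 of counts. Of these, glycine gave 51.0% ± 13.0 and tyrosine had 0 members. The 5' fragments of Asp-GTC, His-GTG and Lys-CTT, described as dependent on sex hormones, had 95 members and 0.515% ± 0.162, led by the Lys-CTT fragment tRF-32-PSQP4PW3FJI01. Met-CAT had 24 members, led by tRF-30-FP18LPMBQ4NK at 0.0546% ± 0.0211.

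Selenocysteine tRNA, which inserts selenocysteine at recoded stop codons, had 5 members and 0.00288% ± 0.00208. Its most abundant member, tRF-39-PS5U8918W8RV1IJF, was detected in all 8 libraries at 7.18e-05% to 0.00159%. The 5' fragments of alanine and cysteine tRNAs that begin with at least 4 guanines had 12 members and 0.0129% ± 0.00821. A further 23 members with such a start, whose anticodon was not read, held 0.108% ± 0.0779. The leading member of each is shown with the guanines in capitals.
tRF-32-RKVP4P9L5FZU3 (Cys-GCA): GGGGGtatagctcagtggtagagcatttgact
tRF-30-RK9P4P9L5HMV (anticodon not read): GGGGGtgtagctcagtggtagagcgcgtgc
The cysteine fragment held 0.000380% to 0.00971% and the other 0.00913% to 0.171%, with PA8001 the lowest of the 8 for the latter.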

How the data were processed

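Counts are as the authors deposited them: whole numbers per distinct fragment sequence and library, not scaled. A deposited sequence table (unit: other) gives each fragment's bases. Per the labels, total RNA from 0.5 mL serum with an RNA integrity number of at least 7 was ligated to adapters, tagged with molecular identifiers at cDNA synthesis and sequenced on a NovaSeq X. The submitters' processing notes name R 4.5.0. Not given in the sources used here were the aligner, the tRNA reference and whether identifiers were collapsed. Wilson intervals at 95% and the floor of 3 counts cover counting error only. Where p-values are given, the animals are the replicates: 8, or fewer where animals were left out. Sign-flip p-values test a difference within libraries, and pairing p-values test a relation across animals.

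Of the table's lines, 1614 without an identifier were left out (0.0543% to 0.180% of a month 0 library's counts). Month 0 columns were matched by library name. Parent tRNAs were inferred from the sequences of all 40 libraries. Fragments of 42 nt or longer gave the anticodon, taken where a 7-base loop was closed by 5 pairs. Fragments starting within 2 bases of that tRNA's 5' end, with at most 2 mismatches over the first 31 bases, took the family. Others took one only as an exact part of an assembled tRNA. Over the 8 libraries, only 69 counts spanned the Lys-TTT anticodon and 10 that of Met-CAT.

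Members were fragments with a count of 10 or more in at least 4 libraries. The members, lists and tests were chosen with earlier results of these data known. Contrasts (12) used exact sign-flip tests over 256 patterns, and correlations (14) used 40320 pairings, both two-sided with Benjamini-Hochberg adjustment and a threshold of 0.05. The coefficient of variation came from a negative binomial fit in R 4.3.3, tested on simulated data. Other values came from Python 3.11.15. Named fragments were the first 20 by mean share, the leaders of the 12 leading families and of each list, the first 3 of the 3' CCA, internal and over 36 nt classes, and the 5 most and 5 least variable of at least 100 CPM. One fragment's sequence is not reported here. Fragments in a length series or a variant set were added to these. Alternatives were other member thresholds, exact matches only, an exact 5' start, a thinned depth, other scalings and leaving out animals.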

Additional observations from a re-analysis of the deposited data

Results flagged for a closer look

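For 8 animals, the highest or lowest value stood apart when its gap to the nearest animal, as a share of the whole range, exceeded Dixon's 95% critical value; chance flags about 1 in 20 groups. Of 92 measures, 12 were so flagged, all at the high end. That chance alone would give 4.60, but the number is no fair yardstick here. Many of the 92 are not independent of each other, and some were named for their high spread over these same animals. Among the flagged, tRF-32-E1Q89P9L8422Q, tRF-30-PW5SVP9N15WV and tRF-32-L85DMKYUYRLH4 were named in that way. Whether the flags exceed chance was not tested.

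PA8914 was highest in 6 of them. Its Glu-TTC share was 1.73%, against 0.736% in the next animal, and the leading Glu-TTC fragment tRF-31-86J8WPMN1E8Y0 was at 0.808% against 0.231%. His-GTG was at 0.0680% against 0.0234%, with its leading fragment tRF-30-PW5SVP9N15WV at 0.0674% against 0.0230%. A 30 nt Glu-CTC fragment was at 2.35% against 1.17%. In the same animal 35.3% of Lys-TTT 5' counts ended inside the anticodon stem, against 19.7% in the next.

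PA8001 was highest for the 32 nt Gly-CCC fragment tRF-32-Q1Q89P9L8422Q (24.1% against 9.88%), for its form with G1A, tRF-32-E1Q89P9L8422Q (1.97% against 0.113%), and for the Asp-GTC 3' CCA fragments tRF-42-S5QKF1R3WE8RO86J2 (0.0183% against 0.00912%) and tRF-40-2VR008R959KUMKF6 (0.0183% against 0.00557%). PA8872 was highest for fragments of 37 nt and over (0.186% against 0.0948%) and for the internal Asp-GTC fragment tRF-32-L85DMKYUYRLH4 (0.0684% against 0.0314%).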

How the results depend on the processing

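Between groups of samples, no paired analysis was possible because no groups of samples are compared: only month 0 libraries are described. Within a library the contrasts are paired, since each sets 2 values of the same library side by side. Of 559 alternative values, 526 kept their direction and side of the threshold, or moved by less than 1 SD. Leaving out 1 animal cannot move a mean over animals by 1 SD. The class, length, family and dominance values so obtained therefore counted as kept by construction, and the number 526 is no measure of stability. For the biological coefficient of variation the rule was a fixed ratio to the main value, so 0.702 over all fragments with an identifier counted as kept. With exact matches only, the Val-AAC/CAC share was 25.5%, against 35.4%, and the Gly-CCC share 42.2%, against 47.9%. Val-AAC/CAC minus Gly-CCC was then -16.7 points (exact sign-flip test, adjusted p = 0.0586). These too counted as kept, given the wide spread between animals. Over all fragments with an identifier, the 5' share was 99.3%, the internal share 0.669% and the r of log10 total with 5' share 0.19, a change of sign. With a count of 10 or more in all 8 libraries, fewer fragments are kept: the 5' share was 99.7%, the internal share 0.250%, the 3' CCA share 0.020%, internal minus 3' CCA 0.230 points, the share of 37 nt and over 0.0233%, the 16 to 24 nt share 0.258%, the 3' CCA mean length 36.40 nt, the share of the first 100 fragments 94.8%, the effective number 25.4, and that r 0.39. The Gly-GCC minus Gly-CCC length difference was then 0.49 nt and missed the threshold, as it did counted from the last stem base (0.46 bases, added after the data were seen). With a 5' start exactly on the mature base, the 5' share was 98.8% and the internal share 1.11%. At the lowest library's depth, 1528 members were seen per library on average, against 1887. Leaving out 1 animal gave 0.40 to 0.61 nt for Gly-GCC minus Gly-CCC, which passed only without PA8001, and -0.22 to -0.12 nt for Lys-TTT minus Val-AAC/CAC, which also passed only without PA8001.

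Without the 2 farthest animals, fewer samples enter the test. Val-AAC/CAC with Gly-GCC then passed at r = 0.91. Gly-CCC with Glu-CTC (0.89), Lys-TTT (0.96) and Gly-GCC (0.72), and Gly-GCC with Glu-CTC (0.43) and Lys-TTT (0.56), no longer passed, and Glu-CTC with Gly-GCC also missed without PA8001 alone (0.75, added after the data were seen). The r of log10 total changed sign with mean length (0.11), 5' share (0.10) and the share of the first 10 fragments (-0.66), none past the threshold. Except where stated, the cause was not tested. The depth of PA8001 limits what can be said of rare fragments there.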
